A study of Mus musculus with 44 samples.

Results

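The genes described here are 9 members of the CREB signalling pathway: the transcription factors Crem, Creb1 and Atf1, the CREB-regulated transcription coactivators Crtc1, Crtc2 and Crtc3, and the salt-inducible kinases Sik1, Sik2 and Sik3. They were taken by their RefSeq accessions from 17158 listed in 44 mouse samples, 1 accession per gene. Crem and Sik1 were selected on their measured responses in these data, namely their tag levels, and for Crem its tail length, in light against dark mice, so for both that comparison is a description without a p-value. The strain given by the study is C57BL6J, and no engineered allele is named for any group. Visual cortex came from 8 mice of 6 to 7 weeks kept in the dark for 1 week, of which 4 were dissected in the dark and 4 after 1 h of light, each with 1 library of 3′-end tags that gave a tag count and a mean poly(A)-tail length per gene. Cortical neurons from newborn pups of both sexes, treated with ara-C against dividing cells, formed 9 cultures, from pooled litters where the methods state it. Of these, 3 were kept for 14 days in vitro (DIV14) and left unstimulated or given BDNF (a neurotrophin) or glutamate and glycine (glu/gly) for 30 min. Another 3 were DIV10 cultures, unstimulated or depolarised with KCl for 10 min or 30 min. The last 3 were transduced on day 5 with a lentivirus that carried EGFP behind a synapsin promoter, alone (GFP) or together with a hairpin for miR-1 or miR-155, and harvested at DIV14. The tissues were the hippocampus of an adult male, the hippocampus of E16 embryos and the cortex of an adult male. Each culture and tissue had 1 RNA-seq, 1 tail and, except for both miRNA cultures, 1 ribosome-profiling library with settled labels, so only the visual cortex had replicates.

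CREB1, ATF1 and CREM are closely related basic leucine-zipper proteins that bind the cAMP response element and, when phosphorylated by PKA or calcium-dependent kinases, recruit CBP and p300. CRTC proteins bind the same factors and strengthen transcription. SIK kinases phosphorylate CRTCs and class IIa histone deacetylases and keep both in the cytoplasm, and PKA in turn inhibits the SIKs. Crem also makes ICER, a short repressor from an internal promoter, and both Crem and Sik1 are known cAMP-induced genes in neurons and endocrine cells. Tags at the 3′ end and reads over the counted reading frame do not separate ICER from the longer CREM mRNAs, so each Crem value is a sum.

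The visual-cortex libraries held between 1241877 and 4812273 tags on genes in the dark and between 1233538 and 1753545 after light, with dark mouse 2 the deepest. Depth elsewhere ran from 448022 to 7689624 reads for RNA-seq, from 817114 to 23212489 ribosome-protected fragments (RPFs) and from 389654 to 1057812 tags for TAIL-seq. Neuronal markers were detected as 5 of 5 in every mouse and every RNA-seq library and summed in the mice to between 7798 and 8775 CPM (counts per 1000000 tags or reads on genes) in the dark and between 8038 and 9159 after light. Astrocyte markers, 5 of 5 in every mouse, summed to between 1501 and 2122 in the dark and between 1297 and 1524 after light. Oligodendrocyte markers (5 of 5) summed to between 636 and 1060 in the dark and between 418 and 787 after light, microglial markers (5 of 5) to between 283 and 344 and between 280 and 325, and endothelial markers (at least 2 of 4, Flt1 and Kdr at 0 in some libraries) to between 7.90 and 21.7 and between 8.11 and 14.1. None of the 21 markers tested changed with light at an adjusted p under 0.05 (edgeR's quasi-likelihood test), while the median log2 fold change was -0.26 for the astrocyte and -0.25 for the oligodendrocyte list. Their part in the results was not tested. For the cultures and adult cortex, all marker values given here are from RNA-seq. Single culture libraries had as few as 1 of 5 oligodendrocyte and 1 of 5 microglial markers detected, with sums of at most 15.1 and 16.2 CPM. Astrocyte markers were detected as 5 of 5 in all 9 cultures, at 855 to 1804 CPM beside 1576 CPM in adult cortex, and were, over the sets of cultures that share a control, at 1804 unstimulated, 1395 with BDNF and 1371 with glu/gly, at 1230, 1102 and 855 in the GFP, miR-1 and miR-155 cultures, and at 1677 before KCl, 1635 at 10 min and 1611 at 30 min. Their part in the culture folds was not tested.

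Sik1, a kinase of the AMPK family, was the member with the greatest difference between dark and light. Its tags numbered 8, 10, 3 and 8 in dark mice 1 to 4 and 52, 102, 97 and 54 in light mice 1 to 4. In CPM this was 5.47, 2.08, 2.34 and 6.44 in the dark and 42.2, 65.1, 55.3 and 32.1 after light. Every light mouse lay above every dark mouse, with means of 4.08 ± 2.20 (SD, n = 4) and 48.7 ± 14.5 (SD, n = 4). The fitted log2 fold change was 3.82 (SE 0.32), a 14.1-fold difference with a 95% interval of 9.11 to 21.8, and it ranked 7 in size among 9554 genes tested.

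Crem, which encodes activators and the repressor ICER, had 52, 226, 52 and 50 tags in the dark mice and 62, 99, 159 and 97 in the light mice. Its levels were 35.6, 47.0, 40.6 and 40.3 CPM in the dark and 50.3, 63.2, 90.7 and 57.6 after light. These groups also did not overlap, although light mouse 1 stood only slightly above dark mouse 2. The log2 fold change was 0.69 (SE 0.17), or 1.61-fold with an interval of 1.28 to 2.03. Crem and Sik1 were thus the 2 of 9 members whose light mice all exceeded the dark mice, where 2.63% of all genes tested did so, and since both were chosen for this contrast nothing is read from that count.

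The other 7 members showed no change with light that passed an adjusted p of 0.05. Of these, 5 passed the filter on low counts, and the lowest unadjusted p among them was 0.0642, for Sik3. Creb1, the constitutively expressed factor, had 101, 94.3, 76.5 and 110 CPM in the dark and 77.0, 87.5, 83.3 and 76.7 after light, so that the groups overlapped. Its log2 fold change was -0.20 (SE 0.12, adjusted p = 0.667, edgeR), with an interval of 0.733 to 1.03 on the fold scale. Sik3, the most abundant SIK here, had 99.2, 112, 111 and 115 CPM in the dark and 77.8, 91.3, 89.5 and 106 after light. Only light mouse 4 reached into the dark range, and the log2 fold change of -0.23 (SE 0.12) had an adjusted p of 0.568 (edgeR).

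Crtc1, the CRTC that prevails in neurons, lay between 57.6 and 82.9 CPM in the dark and between 51.1 and 76.1 after light, with a log2 fold change of -0.15 (SE 0.15, adjusted p = 0.841, edgeR). Atf1 gave 0.08 (SE 0.26, adjusted p = 0.960) and Crtc3 gave -0.06 (SE 0.26, adjusted p = 0.980) in the same fit. At this depth, the 95% intervals of Atf1 and Crtc3 ran from 0.741 to 1.52-fold and from 0.673 to 1.38-fold. Sik2 and Crtc2 had at most 28 tags in any mouse and did not pass the filter. Fitted without it, Sik2 had a log2 fold change of 0.57 (SE 0.60, adjusted p = 0.847, edgeR) and Crtc2 one of -1.45 (SE 0.67, unadjusted p = 0.0325, adjusted p = 0.522, edgeR). Crtc2 had 4, 28, 3 and 6 tags in the dark mice and 2, 6, 1 and 0 in the light mice. Among all genes, 1.21% rose and 0.126% fell by the same criterion.

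**Figure D1:**
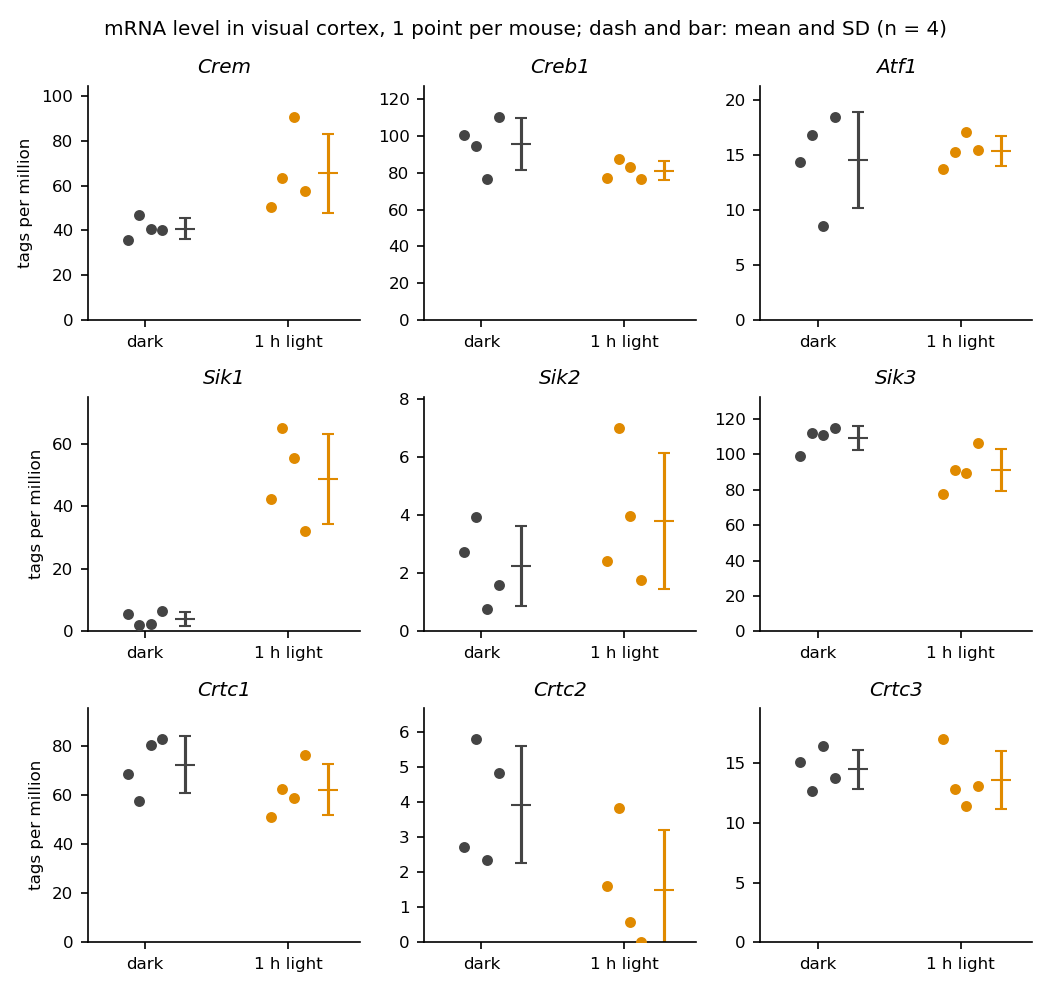
CPM (tags per 1000000 tags on genes) of the 9 genes in visual cortex, 1 point per mouse, with the mean and SD of 4 mice beside each group and a linear axis from 0 in each panel. For Sik1 (2.08 to 6.44 in the dark, 32.1 to 65.1 after light) and Crem (35.6 to 47.0, then 50.3 to 90.7) the groups lie apart, and in the other 7 panels they overlap.

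By tags, the make-up of the CREM/CREB and SIK families differed between dark and light mice, and that of the CRTC family overlapped. Crem supplied 23.6%, 29.7%, 32.3% and 23.8% of the tags of Crem, Creb1 and Atf1 in dark mice 1 to 4 and 35.6%, 38.1%, 47.5% and 38.5% in light mice 1 to 4. The mean share was 27.3% ± 4.35 (SD, n = 4) in the dark and 39.9% ± 5.21 (SD, n = 4) after light. Sik1 supplied between 1.76% and 5.23% of the SIK tags in the dark and between 22.9% and 39.8% after light, while Sik3 went from a mean of 94.5% ± 2.11 to 63.9% ± 8.55 (SD, n = 4 each). These shares use the values of Crem and Sik1 that chose them, so they are given as description. They are shares of 3′-end tags, in which Sik2 was scarce. In adult cortex Sik2 had 9 TAIL-seq tags beside 92 RNA-seq reads, and Sik3 had 51 beside 318. The SIK shares by tags are therefore not read as shares of mRNA. Crtc1 made up 79.5% ± 2.70 of the CRTC tags in the dark and 80.2% ± 5.27 after light (SD, n = 4 each), with overlapping groups.

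Genes around the pathway were counted over lists assembled with earlier results of these data known. Of CREB target genes, 14 of 20 tested rose with light and 0 fell, beside 1.21% and 0.126% of all genes, and the list's median log2 fold change was 2.11 against -0.00471 for all genes tested. Egr1, a zinc-finger immediate early gene, rose by a log2 fold change of 3.15 (SE 0.16, adjusted p = 1.02e-11, edgeR), from 152 ± 47.2 to 1303 ± 232 CPM (SD, n = 4 each). Fosb, an AP-1 subunit, rose by 4.52 (SE 0.30) from 6.64 ± 4.18 to 138 ± 51.6 CPM. The nuclear receptor Nr4a1 rose by 4.13 (SE 0.27) and the clock gene Per1 by 1.98 (SE 0.14) on the log2 scale. The adjusted p of these 3 was 7.46e-10, 7.46e-10 and 1.8e-09 (edgeR). Of 7 target genes with enough tags for tails, 1 passed the limma test of mean tail length, Vgf, a secreted neuronal peptide precursor, with a difference of 26.7 nt (SE 6.68, adjusted p = 0.0394). Of the 3 oligodendrocyte markers so measured, Mbp passed it, with 27.1 nt (SE 6.68, adjusted p = 0.0372). Both were named after their values were seen, and at least 1 of these calls was lost with log2 tails, with a trend and robust prior and with the replicate block, under each of which 1 gene was called over all.

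For the lists of inputs, SIK substrates, partners and phosphodiesterases, the share over all genes was 1.21% higher and 0.126% lower. Lists this small would hold few calls at that share, so nothing is read from their counts. Among CREB inputs (PKA subunits, calcium-dependent and LKB1-complex kinases, calcineurin and adenylate cyclases), 0 of 19 tested passed in either direction, with a median log2 fold change of 0.05. At an unadjusted p under 0.05 (edgeR), 504 genes were higher and 399 lower among all 9554. At an adjusted p under 0.05, DESeq2 called 115 higher and 11 lower among 11672. None of 10 tested SIK substrates and effectors passed, with a median of 0.08. Of 8 coactivators and partners, only Atf4, a stress-induced CREB-family factor, rose, by 0.56 (SE 0.11, adjusted p = 0.00707, edgeR). Of 8 cAMP phosphodiesterases, Pde4b, which hydrolyses cAMP, was the one that changed and fell by 0.50 on the log2 scale (SE 0.11, adjusted p = 0.0181, edgeR), from 137 ± 9.53 to 94.7 ± 11.2 CPM (SD, n = 4 each).

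Promoters of 6 of the 9 genes were in the RefSeq promoter set of GRCm38.p6, each from 250 bases before the start site to 50 after it. Those of Crem, Sik1 and Crtc2 were not. The sequences below are shown because they carry the half-site TGACG of the cAMP response element in genes of the family that did not pass the test after light. The full element TGACGTCA, searched on both strands, was in 0 of the 6 promoters and in 1.79% of 32851 promoters, and TGACG, which lies within it, was in 3 of the 6 and in 20.8% of all. Capitals mark each TGACG or its complement CGTCA. The Sik2 stretch lies at chr9:51009045-51009086 on the minus strand and holds a match on either strand at the start site, the Sik3 stretch at chr9:46012675-46012779 on the plus strand holds 3 matches at -133, -116 and -57, and the Atf1 stretch at chr15:100227757-100227785 on the plus strand holds 1 at -90.
Sik2: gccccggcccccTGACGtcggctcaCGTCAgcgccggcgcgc
Sik3: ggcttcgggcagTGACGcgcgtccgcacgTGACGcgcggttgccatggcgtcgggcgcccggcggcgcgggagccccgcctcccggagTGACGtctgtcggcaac
Atf1: gtgaccacgcggTGACGcagcacgccggc
The 3 matches of Sik3 and the pair of Sik2 were found in genes with log2 fold changes of -0.23 and 0.57 whose tests did not pass. The value of Sik2 is from the fit without a filter (SE 0.60), on 1 to 19 tags per mouse. Without promoters of Crem and Sik1 there was nothing to compare, so nothing is read from the matches. A match is a run of letters and was not tested as a binding site.

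Tails of Crem mRNA were longer in the light mice. Its mean tail length was 105, 91.2, 79.3 and 91.6 nt in dark mice 1 to 4 and 105, 129, 140 and 103 nt in light mice 1 to 4, each from at least 50 tags. The groups overlapped, since dark mouse 1 was level with light mouse 1 and above light mouse 4. The mean difference was 27.4 nt (SE 6.68, 95% interval 14.3 to 40.5), rank 5 in size among 4321 genes with at least 50 tags in each mouse. The median over genes of a library ran from 77.5 to 92.4 nt in the dark and from 81.6 to 97.8 nt after light, and the median gene was 3.75 nt longer after light. Set against the median of its own library, Crem was longer by 12.5, 0.612, 1.80 and 11.8 nt in the dark and by 21.4, 34.9, 41.7 and 21.8 nt after light. On this measure the groups did not overlap, but the share of all genes lying apart on it was not counted. Crem was also chosen on its tail length in these mice, so nothing is read from that separation. Among the genes of each library it stood at percentiles 52.3 to 88.3 in dark mice and 97.8 to 99.6 in light mice. The limma fit gave the same standard error to every gene.

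Sik1 tails could be compared only as values, since the dark mice had 3 to 10 tags. Their means were 120, 95.4, 140 and 158 nt, against 95.7, 109, 114 and 80.6 nt in the light mice from 52 to 102 tags. Relative to each light mouse's median gene, Sik1 stood at 12.4, 14.6, 15.9 and -1.01 nt.

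Of the other members, 3 had at least 50 tags in every mouse and none changed in tail length (limma), where 0.231% of 4321 genes did. Creb1 differed by 8.17 nt (SE 6.68, adjusted p = 0.999) and Sik3 by 2.91 nt (SE 6.68, adjusted p = 0.999). Crtc1 had means of 105, 107, 89.4 and 98.7 nt in the dark and 87.0, 84.3, 108 and 87.8 nt after light. Its difference of -8.15 nt (SE 6.68) had an adjusted p of 0.999 (limma) and was among the lowest 0.347% of changes. The 10 genes called over all were 1 with log2 tail lengths. For Crtc1, light mouse 3 lay above all dark mice and the other 3 light mice below all of them. Set against the median of its own library, Crtc1 stood at 12.5, 16.3, 12.0 and 18.8 nt in the dark and at 3.64, -9.78, 10.5 and 6.23 nt after light. Every light mouse then lay below every dark mouse. The share of all genes lying apart in this way was not counted, so nothing is read from it.

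**Figure D2:**
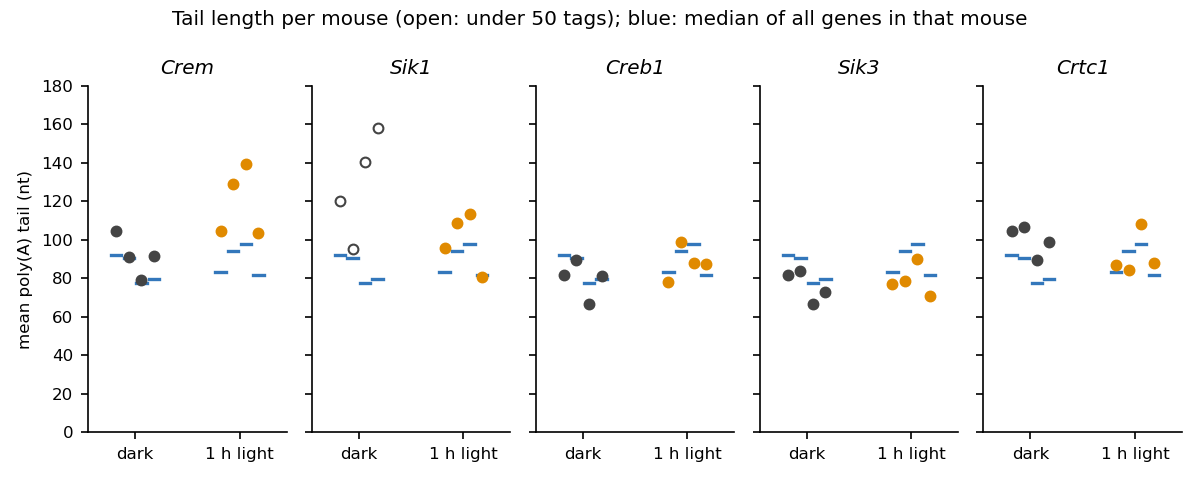
Mean poly(A)-tail length in nt of 5 genes, 1 point per mouse (open where fewer than 50 tags were measured), with a blue dash at the median of all genes in the same library. Crem lies 21.4 to 41.7 nt above the dash in light mice and 0.612 to 12.5 nt above it in dark mice, whereas Sik3 lies below it in all 8.

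In the cultures and adult cortex, measured by TAIL-seq, the members differed from one another in tail length. Crtc1 had the longest tails of the members with at least 50 tags, at 137 nt unstimulated, 147 nt with BDNF, 131 nt with glu/gly and 129 nt in adult cortex. These were 24.0 to 36.3 nt above the library median and at percentiles 96.8 to 99.4. With at least 20 tags it stood above the median in 9 of 9 libraries, by 10.7 to 42.3 nt. In dark mice it stood at percentiles 87.3 to 96.7 and in light mice at 18.2 to 80.6.

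Creb1 was at the other end. Its tails measured 89.0 nt unstimulated, 94.0 nt with BDNF, 79.4 nt with KCl for 30 min and 83.6 nt in adult cortex, or -26.8 to -15.9 nt from the median, at percentiles 1.9 to 7.79. With at least 20 tags it was under the median in 8 of 9 libraries, the exception being 10 min of KCl at 104 nt. In the visual cortex, measured by PAL-seq, Creb1 was less extreme, at percentiles 12.6 to 56.1 in dark mice and 18.7 to 72.9 in light mice. Sik3 lay between -2.06 and 1.81 nt of the median in the 5 libraries with at least 50 tags. Crem, at 105 nt with BDNF and 102 nt with KCl for 30 min, stood at -6.41 and -4.31 nt from the median. Its unstimulated controls had 45 and 43 tags with means of 100 and 101 nt. With at least 20 tags, Crem tails differed from their control by 4.24 nt with BDNF, 10.3 nt with glu/gly, -12.7 nt at 10 min of KCl and 1.01 nt at 30 min, from 1 library each.

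**Figure D3:**
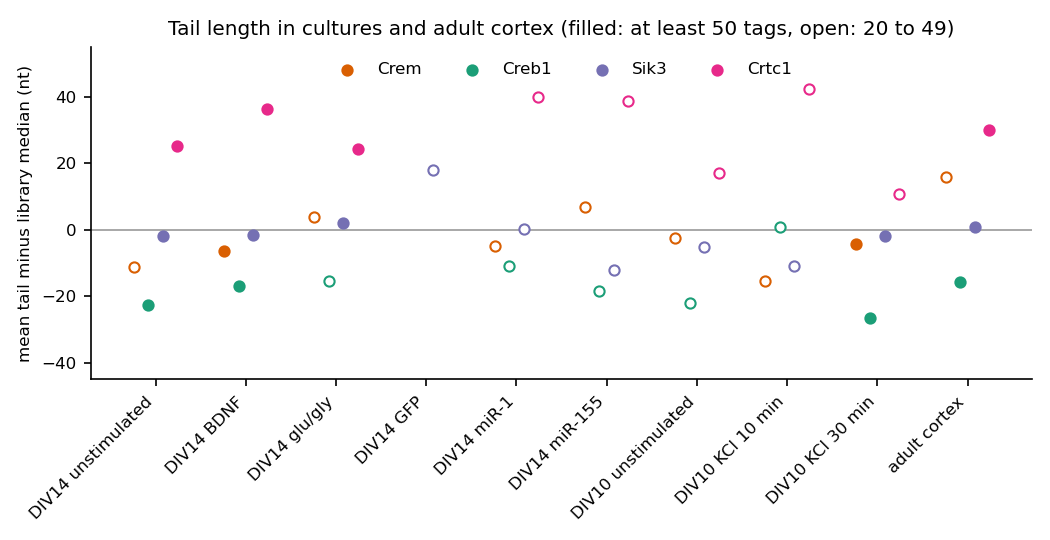
Mean tail length minus the median of the same library, in nt, for 4 genes in 9 cultures and adult cortex (filled, at least 50 tags, open, 20 to 49 tags, 1 library each). Crtc1 lies 10.7 to 42.3 nt above the line at 0 wherever it was measured, Creb1 lies below it in 8 of 9 libraries, and Sik3 and Crem scatter around it.

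With at least 50 tags in both libraries, tails of 3 members could be set against the unstimulated DIV14 culture. Between BDNF and control, Crtc1 tails were 10.6 nt longer, where the middle 90% of 4098 genes ran from -12.5 to 11.2 nt. Creb1 differed by 5.06 nt and Sik3 by -0.322 nt. With glu/gly, Sik3 and Crtc1 differed by -0.791 and -5.66 nt, beside a median of -4.68 nt over 3516 genes. All of these 5 changes lay inside the middle 90% of genes. With 20 to 49 tags, 3 changes lay outside it, Crtc1 at 10 min of KCl (25.2 nt, 29 and 32 tags), Creb1 in the same pair (23.2 nt, 38 and 32 tags) and Sik3 with miR-155 against GFP (-30.7 nt, 30 and 22 tags). These 3 were picked from all member changes at this cutoff, and some genes lie outside the middle 90% by definition, so nothing is read from them. For Crtc1 and Creb1 the change at 30 min of KCl was -3.8 and -1.83 nt. BDNF and glu/gly share the same control culture, as do both KCl times and both miRNAs.

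Levels in the cultures were read from RPFs as well as RNA-seq, since RNA-seq was shallow for these genes. In the unstimulated DIV14 culture, RNA-seq reads numbered 9 for Crem, 17 for Creb1, 0 for Atf1, 6 for Sik1, 9 for Sik2, 26 for Sik3, 2 for Crtc1, 3 for Crtc2 and 7 for Crtc3. RPFs of the same genes numbered 66, 173, 6, 133, 263, 726, 716, 29 and 83. Folds against the control culture carry 95% counting intervals only, with no replicate and no test.

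Sik1 RPFs in the cultures showed no rise of the size of the tag difference in the light mice. The measure, the time (10 or 30 min against 1 h) and the system all differ between them, so the sizes are not like for like. Sik1 had 133 RPFs unstimulated, 122 with BDNF and 124 with glu/gly. In CPM its fold was 1.08 with BDNF (interval 0.835 to 1.39) and 1.44 with glu/gly (1.12 to 1.85), the latter beyond counting error. These folds stood at percentiles 72.6 and 95.1 of genes. By the authors' RPM they were 1.03 and 1.26, and no interval was formed on that scale, so the call beyond counting error holds for CPM only. With KCl, Sik1 had 518 RPFs before, 277 at 10 min and 174 at 30 min, with folds of 0.919 (0.791 to 1.07) and 1.04 (0.874 to 1.24). All 4 intervals lie under 2-fold. TAIL-seq tags of Sik1 were too few for such a bound, at 15 unstimulated, 22 with BDNF and 8 with glu/gly, and at 11 before KCl, 11 at 10 min and 24 at 30 min, the last a fold of 1.70 (0.801 to 3.84).

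Crem RPFs were lower with BDNF and higher at 30 min of KCl beyond counting error, while the intervals for glu/gly and for 10 min of KCl held 1. Their number was 66 unstimulated, 33 with BDNF and 27 with glu/gly, with folds of 0.587 (0.374 to 0.904) and 0.631 (0.388 to 1.00), at percentiles 5.74 and 7.71 of genes. With KCl it was 97 before, 68 at 10 min and 54 at 30 min, with folds of 1.21 (0.870 to 1.66) and 1.73 (1.22 to 2.44), the last at percentile 96.8. By the authors' RPM the Crem folds were 0.560 with BDNF, 0.555 with glu/gly, and 1.06 and 1.66 with KCl. No interval was formed on that scale, so which intervals hold 1 is stated for reads on genes only. TAIL-seq tags of Crem, 45 unstimulated, 58 with BDNF, 44 with glu/gly, 43 before KCl, 35 at 10 min and 72 at 30 min, gave folds of 1.27, 1.28, 0.857 and 1.30, and each of their intervals held 1. For BDNF and glu/gly the tag and RPF folds of Crem lay on opposite sides of 1, and their difference was not tested.

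Counted over all members, few changes reached 2-fold. In RPFs, 0 of 8 members with at least 20 fragments were called with BDNF (3.93% of all genes), 0 of 8 with glu/gly (3.74%), 1 of 9 at 10 min of KCl (7.65%) and 1 of 9 at 30 min (7.81%). The gene called at both times was Atf1, with 25 RPFs before, 7 at 10 min and 3 at 30 min, and both of its intervals held 1. In RNA-seq the numbers were 0 of 3 with BDNF (4.32%), 1 of 3 with glu/gly (6.12%), 0 of 7 at 10 min of KCl (4.18%) and 1 of 7 at 30 min (10.4%). The first was Sik2, with 9 and 23 reads, whose interval of 0.964 to 5.31 held 1, and the second was Crtc3, with 18 and 4 reads and a fold of 0.330 (0.0811 to 1.00). RPFs of Sik2 differed 1.11-fold with glu/gly and those of Crtc3 0.622-fold at 30 min of KCl (0.457 to 0.833).

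Crtc1, whose protein moves to the nucleus upon activity, had 716, 577 and 384 RPFs in the unstimulated, BDNF and glu/gly cultures. Its folds were 0.945 (0.846 to 1.06) and 0.827 (0.729 to 0.938). In the KCl series, 1236, 841 and 488 RPFs gave folds of 1.17 (1.07 to 1.28) and 1.23 (1.10 to 1.36). Sik3 stayed close to its controls, at 0.966 and 1.01 in the DIV14 series and at 0.818 (0.748 to 0.893) and 0.988 in the DIV10 series. Both KCl cultures share 1 control.

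**Figure D4:**
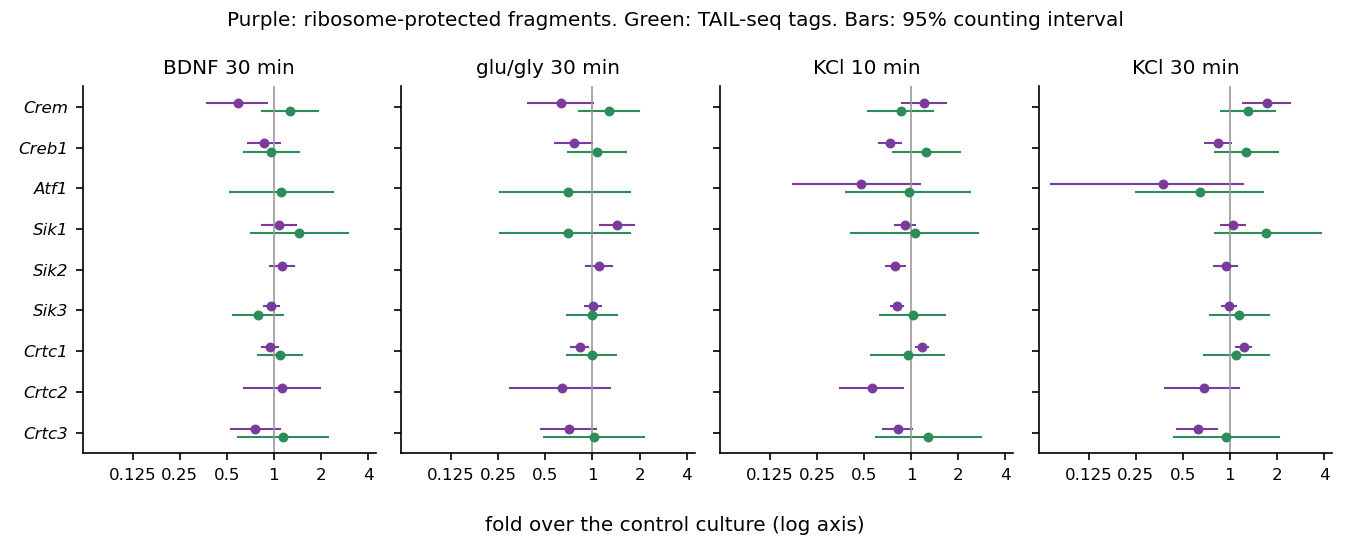
Fold over the control culture on a log axis for RPFs (purple) and TAIL-seq tags (green), with 95% counting intervals, for members with at least 20 counts over both libraries. No point for RPFs lies above 2, and the green and purple points of Crem lie on opposite sides of 1 for BDNF and for glu/gly.

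In the miRNA cultures, by RNA-seq, 1 of 4 members was called with miR-1 (6.52% of genes) and 0 of 6 with miR-155 (7.09%). The GFP, miR-1 and miR-155 cultures held 6, 29 and 43 RNA-seq reads of Sik1, with folds of 2.24 (0.912 to 6.59) and 1.52 (0.645 to 4.37). TAIL-seq gave 13, 14 and 10 tags of Sik1 and folds of 0.940 and 0.624, on the other side of 1. Mature miR-155 is shown since its seed, bases 2 to 8 in capitals, is what the search of the members used.
mmu-miR-155-5p: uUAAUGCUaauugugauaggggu
The match to this seed, AGCATTA, was in the 3′ UTR of 0 of the 9 members and in 7.95% of 16885 annotated 3′ UTRs. The mature miRNA lies at chr16:84714143-84714165 in GRCm38. Creb1, with 17 reads in the GFP culture and 83 in the miR-155 culture, differed 1.04-fold (0.610 to 1.86).

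Per unit of length, the members spanned a wide range of RPF levels. In RPKM, the reads per kilobase and per 1000000 reads on genes, Crtc1 had the highest RPF level of the 9 in 9 of 10 samples, at 70.5 to 89.6 RPKM in the cultures. Creb1 (31.0 to 54.4) and Sik3 (32.9 to 50.1) came next, and in the unstimulated DIV14 culture the intervals of these neighbours overlapped, at 40.9 (35.0 to 47.4) and 41.2 (38.3 to 44.3). Sik2 (18.6 to 31.6), Sik1 (13.4 to 24.9), Crem (9.03 to 17.9), Crtc3 (at least 7.46), Crtc2 (2.10 to 4.26) and Atf1 (0.468 to 3.47) followed, with ranges that overlapped between most neighbours. By RNA-seq, Creb1 had the highest level in 11 of 12 samples, at 29.9 to 46.3 RPKM in the cultures, and Crtc1 lay at 1.68 to 15.3.

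Crtc1 had a high ratio of RPFs to RNA-seq reads in the cultures and adult cortex. Its translational efficiency (TE), the log2 ratio of RPFs to RNA-seq reads in the authors' RPM, could be taken at the cutoff of 10 RPM only in the hippocampi, at 1.26 (interval 1.18 to 1.34) in the adult and 1.54 (1.41 to 1.67) in the embryo. These were percentiles 65.7 and 87.2 of genes. With at least 10 RNA-seq reads it was 4.77 in the DIV10 control, 3.66 and 5.12 at 10 and 30 min of KCl and 3.97 in adult cortex, at percentiles 99.4 to 99.9 of genes, whereas by the same cutoff the adult and embryonic hippocampus stood at 62.1 and 82.1. In the unstimulated DIV14 culture 716 RPFs stood against 2 RNA-seq reads and 74 TAIL-seq tags, or 165, 3.93 and 71.0 CPM. In adult hippocampus it was 5497 RPFs against 1613 reads. RNA of both hippocampi was poly(A)-selected, whereas that of adult cortex and 6 cultures was depleted of ribosomal RNA, and this step cannot be told apart from the difference between the samples. The coding sequence of Crtc1 is 61.6% G and C, above 92.1% of genes, and the part of either in the ratio was not tested.

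**Figure D5:**
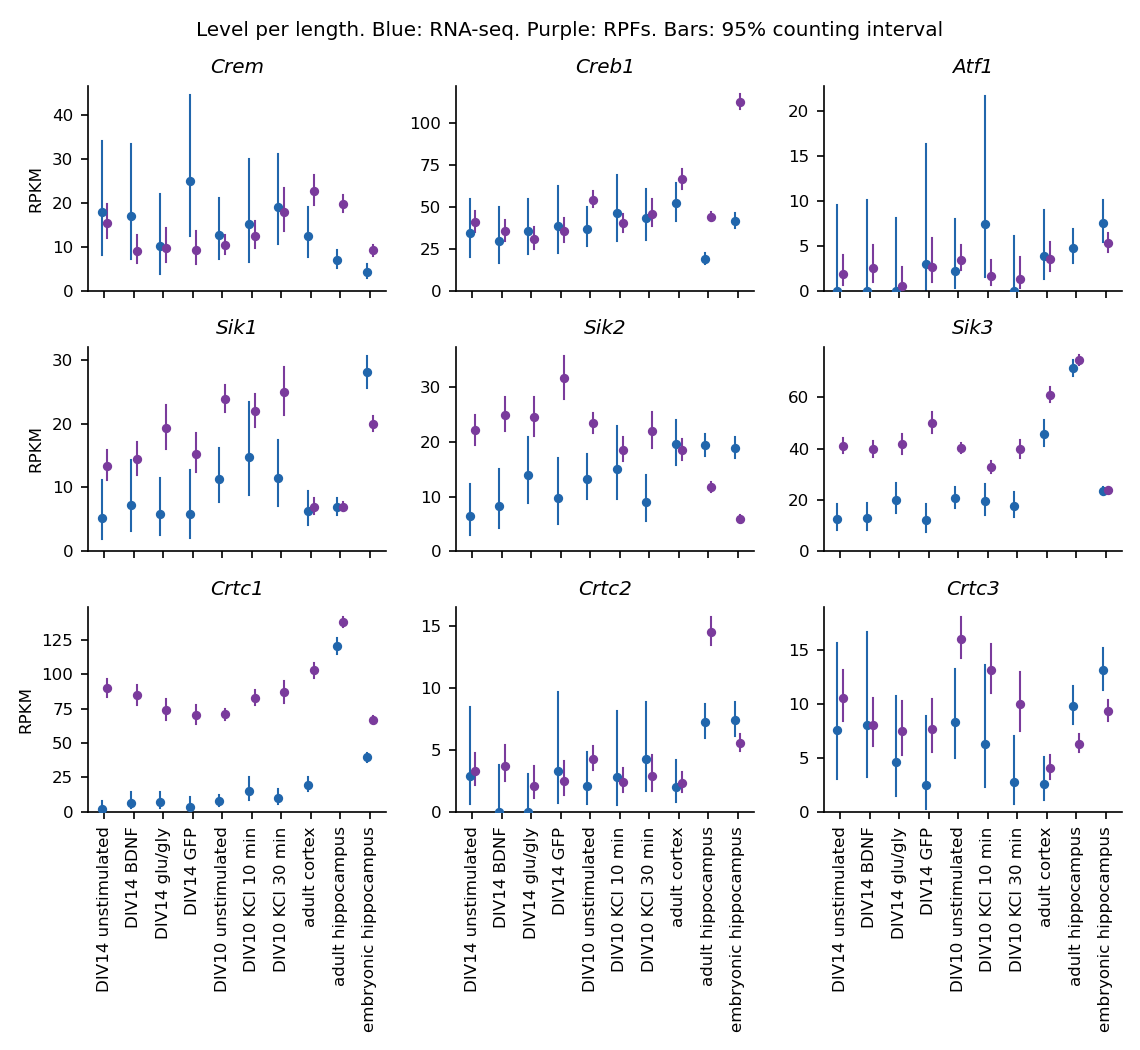
Level per length in RPKM of each gene by RNA-seq (blue) and RPFs (purple) in 10 samples, 1 library each, with 95% counting intervals and a linear axis from 0 per panel. For Crtc1 the purple points (70.5 to 103) lie far above the blue ones (2.13 to 19.7) in cultures and adult cortex, while in the hippocampi the blue points rise to 120 and 39.6.

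Across the 9 genes and 10 samples, 17 of 90 TE values passed the cutoff, and 13 of them lay above the median gene of their sample. Sik3 alone gave 8 of the 17, all above the median, so the count repeats 1 gene over samples and does not describe the members as a set. Its values ran from 0.819 in embryonic hippocampus to 3.36 in the unstimulated DIV14 culture (interval 2.80 to 3.98). Relative to the genes of each sample these were percentiles 56.7 to 97.7. With BDNF and glu/gly Sik3 had a TE of 3.19 (2.61 to 3.83) and 2.4 (1.97 to 2.86), at percentiles 97.1 and 93.6, and the intervals of the control and glu/gly overlapped. Sik2 had -0.884 in embryonic hippocampus, 0.331 in adult hippocampus and 1.51 in adult cortex. Creb1 had 1.94 in adult cortex and 2.22 in embryonic hippocampus. Crem reached 10 RPM in none of the samples, and with at least 10 RNA-seq reads its TE stood at percentiles 16.7, 55.3 and 63 in 3 cultures and at 88.1, 91 and 95 in adult cortex, embryonic hippocampus and adult hippocampus.

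Between embryonic and adult hippocampus members of the SIK, CREB and CRTC families differed in both directions. By RNA-seq, 2 of 9 members, Creb1 and Sik1, were at least 2-fold higher in the embryo (26.6% of genes) and 2 of 9, Sik3 and Crtc1, at least 2-fold lower (22.3%), shares close to those of all genes. Sik1 had 494 reads in the embryo and 116 in the adult, a fold of 4.03 (3.29 to 4.98), and 1061 and 347 RPFs, a fold of 2.85 (2.53 to 3.23). Creb1, with 313 and 133 reads, was 2.23-fold higher (1.81 to 2.75) and by RPFs 2.55-fold higher (2.37 to 2.75).

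Sik3 had 732 reads in the embryo and 2108 in the adult, a fold of 0.329 (0.302 to 0.358), and 2264 and 6554 RPFs, a fold of 0.322 (0.307 to 0.338). Crtc1 was at 0.329 (0.299 to 0.363) by reads and 0.485 (0.463 to 0.507) by RPFs. Crem had few reads, 32 and 50, with a fold of 0.606 (0.376 to 0.963), and 210 and 421 RPFs, with a fold of 0.465 (0.393 to 0.551). By RPFs, 2 of 8 members were called higher (33.6% of genes) and 4 of 8 lower (24.8%), the latter being Crem, Sik3, Crtc1 and Crtc2. Atf1 had 93 RPFs in the embryo and no row in the adult file, which also lacked rows for 368 of 11759 genes with at least 20 RNA-seq reads, so no fold was formed. Of the cell-type markers, all by RNA-seq, oligodendrocyte ones summed to 1232 CPM in the adult and 14.4 in the embryo, and microglial ones to 218 and 45.8. Astrocyte markers summed to 2113 and 593 and endothelial ones to 40.5 and 176, while neuronal ones summed to 3468 and 2632. The part of cell make-up in these folds was not tested, and more cells of a type cannot be told apart from more mRNA per cell.

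Within tissues, Sik1 mRNA per length was at 6.96 RPKM (5.75 to 8.35) in adult hippocampus and at 6.39 (4.13 to 9.43) in adult cortex, with overlapping intervals, and its RPFs were at 6.99 in the cortex (5.79 to 8.36). Over the 12 RNA-seq libraries, the genes with levels most like those of Sik1 were Jmjd6 (Pearson r = 0.967), Plxna3 (r = 0.967) and Cntrob (r = 0.960) of 8773 compared. For Crem they were D6Wsu163e (r = 0.761), Snx25 (r = 0.758) and Clcn3 (r = 0.702) of 8774. Groups of these libraries share a kind of sample and an RNA selection, which was by poly(A) in both hippocampi and by ribosomal RNA depletion in adult cortex. Sik1 was highest in embryonic hippocampus.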

How the data were processed

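The 9 genes and all gene lists were chosen with earlier results of these data known. For RNA-seq (12 libraries) and ribosome profiling (12 libraries), the deposited values are read counts and RPM per gene, which the authors made from reads inside the coding region of a single mRNA per gene, leaving out the initial 50 nt. For 20 tail libraries (10 TAIL-seq, 10 PAL-seq v2) the authors deposited tag counts and a tail length in nt (score), a mean except in both hippocampi, where all values are multiples of 0.5 nt and were not used. The authors' log2 TE served as an alternative, and the columns of their comparison of the mice were not used. The submitters' processing notes name STAR 2.4.2, bedtools and mm10. Standards were left out of totals, and a gene without a row was taken as 0, except for RPFs of the hippocampi.

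Tag counts of the 8 mice were tested with edgeR 4.0.16 (TMM, filterByExpr, quasi-likelihood) and mean tails of genes with at least 50 tags in each mouse with limma 3.58.1, both in R 4.3.3, two-sided, with Benjamini-Hochberg adjustment over all genes at 0.05. Their 95% intervals are the estimate ± 1.96 SE. Both steps were tested on simulated data. Samples other than the mice had 1 library per assay, so that folds, on reads or tags on genes, have exact (Clopper-Pearson) intervals of counting error only, with at least 20 counts over both libraries and 2-fold as the call. TE used the authors' RPM, with at least 10 in RNA-seq and at least 1 RPF. Genes named beside the 9 were, of each list, at most 4 called with light by adjusted p, and the 3 most like Crem and Sik1 by Pearson r of log2(RPM + 1). Symbols, promoters and the miRNA came from RefSeq for GRCm38.p6. Nothing states that mice of 1 group differed in litter, so p-values measure the spread between these mice. For tails this spread was pooled over all genes tested, so a gene's own spread did not enter its p-value or interval. Both RPF libraries of the miRNA cultures carry contradictory labels and entered no comparison between groups. Their values are set beside the GFP culture in the closing section only. Alternatives were DESeq2 1.42.0, other filters, size factors, a replicate block, leaving out each mouse, RPF or tag counts, and other cutoffs.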

Additional observations from a re-analysis of the deposited data

Results flagged for a closer look

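Crtc1 tails in the light mice measured 87.0, 84.3, 108 and 87.8 nt, and light mouse 3 (108.3 nt) stood apart from the other 3 by more than a Dixon test at 95% allows. Of 27 sets of 4 mice examined, chance would give about 1 in 20. Both ribosome-profiling libraries with contradictory labels held RPFs above the GFP culture, beyond counting error, for 1 member each, and the second also held fewer of Sik3, at 0.831-fold (0.752 to 0.920). In the first, Sik1 was at 57.5 CPM, the counts per 1000000 reads on genes, with a 95% counting interval of 42.3 to 76.5, against 34.9 with GFP, a fold of 1.65 (1.14 to 2.35). In the second, Crtc1 was at 157 CPM (148 to 167) against 130 with GFP, a fold of 1.21 (1.08 to 1.37).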

How the results depend on the processing

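The count of genes changed with light, 128, stayed within 1.5 times under DESeq2, other size factors, no filter, the replicate block (113) and leaving out each mouse (100 to 150). Of these, the 12 lower genes were 30 without the filter, 6 without light mouse 3, 20 without light mouse 4 and 8 without dark mouse 3 or light mouse 2. The 10 genes with changed tails were fewer with log2 tails (1), a trend and robust prior (1) and the replicate block (1), and between 1 and 21 without single mice (19 without dark mouse 1, 21 without light mouse 4, and 1 or 2 without dark mice 2, 3 or 4 or light mice 2 or 3). Same-numbered mice did not deviate together (r between -0.196 and 0.031 for levels), so the numbers are names, and the block changed no call of the 5 members tested for levels. The log2 fold change of Crem ran from 0.49 to 0.81 and that of Sik1 from 3.37 to 4.09 without single mice, and Crem's tail change from 20.6 to 32.7 nt. Small changes turned sign without single mice: Atf1 (-0.06 to 0.20), Crtc3 (-0.16 to 0.03) and Sik3 tails (-0.761 to 5.71 nt). In RNA-seq of the cultures, 3 of 30 pairs of a member and a contrast were called at 2-fold. The calls numbered 5 with the authors' RPM, 0 with TAIL-seq tags, 0 with at least 50 reads and 8 at 1.5-fold. A gene counts once per contrast, so genes recur among these calls. At 1.5-fold, 6.72% to 11.5% of all genes were higher and 9.01% to 18.8% lower, depending on the contrast, so nothing is read from the calls. Sik1 with miR-1 was at 0.940 by tags. The 4 members called between hippocampi were 0 by tags, where 1 member had 20 tags. TE lay above the median in 5 of 5 values at 30 RPM and 45 of 53 with at least 10 reads. Such values repeat the same genes over samples. Tails under percentile 10 or over percentile 90 were 8 of 15, 15 of 40 with at least 20 tags and 0 of 0 with 100. The cause of these differences was not tested.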

Other observations

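Tags at the annotated 3′ end of Sik2 were scarce in cultures where its reading frame was covered. The unstimulated DIV14 culture held 1 TAIL-seq tag of Sik2 against 263 RPFs and 9 RNA-seq reads and the DIV10 control 4 tags against 608 RPFs and 43 reads. Sik3 had 72 and 38 tags in the same libraries. In visual cortex, Sik2 made up between 0.685% and 4.30% of the SIK tags of a mouse. In the RPF libraries with contradictory labels, Crem was at 8.57 (3.44 to 17.7) and 13.1 (10.4 to 16.2) CPM, beside 9.15 in the GFP culture.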
